A study of Mus musculus with 12 samples.

Results

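The VE-cadherin adherens junction complex holds neighbouring endothelial cells together. VE-cadherin, encoded by Cdh5, binds VE-cadherin on the next cell, and its cytoplasmic tail carries catenins, which stabilise it at the membrane and connect it to actin. In brain endothelium these junctions lie beside the tight junctions of the blood-brain barrier, and beta-catenin serves both as a junction protein and as the mediator of canonical Wnt signalling. The complex was examined through 7 genes named by symbol: the cadherins Cdh5 and Cdh2, the catenins Jup, Ctnna1 and Ctnnd1, the adhesion receptor Pecam1 and the receptor phosphatase Ptprb. All 7 were found among the 21638 genes of the count table, and all 7 passed the filter on low counts (a mean count of at least 10) together with 12577 genes in total.

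The cells were cortical endothelial cells of adult mouse brain, sorted as positive for CD31, the protein encoded by Pecam1, and negative for CD41 and CD45. There were 4 groups with 3 libraries each. WT mice formed the reference, and the labels do not say whether they carried Cre or received tamoxifen. Mice labelled Hdac2 ECKO carried Hdac2lox/lox, mice labelled Ezh2 ECKO carried Ezh2lox/lox, and mice labelled beta-catenin GOF carried Ctnnb1lox/lox for constitutive activation. All mutants bore Cdh5CreERT2, a tamoxifen-inducible Cre recombinase driven by the Cdh5 promoter, so a member of the complex shares its promoter with the driver. They received 5 doses of tamoxifen at 75 mg per kg, and brains were taken 2 months later. The age and the sex of the animals are not given in the sources used here. Nothing says that the 3 libraries of a group came from separate animals, so p-values measure the spread between these libraries.

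Libraries held 24781070 to 36109975 counts. Levels are given in CPM, counts per 1000000 after TMM scaling, a correction for differences in library composition. Of 10 endothelial markers none was at 0 in any group, and their sum lay between 8150 and 10981 CPM in every library. Against WT, 1 of the 10 was called higher and 1 lower in Hdac2 ECKO (edgeR adjusted p under 0.05). Of all tested genes 3.82% and 5.38% were called so. In each other mutant 0 of the 10 were called. The targeted genes did not bear out every label. Hdac2 stood at 129 ± 30.1 CPM in WT and at 96.5 ± 15.2 CPM in Hdac2 ECKO (SD, n = 3 each), with overlapping libraries. Beta-catenin GOF, where Hdac2 was not targeted, held it at 96.2 ± 10.1 CPM, so the lower mean was not particular to the Hdac2 ECKO label. Mean Ezh2 was 6.75 ± 3.52 CPM for WT, and the libraries labelled Ezh2 ECKO were no lower, at 8.92 ± 3.36 CPM, which goes against that label. Counts summed over a gene would not show a deletion that leaves most of the transcript in place. The library labelled Ezh2 ECKO 2 stands apart, with an estimated quality weight of 0.262, the lowest of the 12. Against WT, values of the 7 members without it are given where they change a call, turn a sign or move by over 1.5 times.

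Levels within WT cells spanned a wide range. Compared per kilobase of gene length, Pecam1 was highest at 50.2 ± 12.7 CPM per kb, at percentile 89.9 of the tested genes. Ptprb followed at 43.2 ± 9.21, Cdh5 at 35.8 ± 11.1 and Ctnna1 at 27.3 ± 2.24 CPM per kb (SD, n = 3). The spreads of Pecam1, Ptprb and Cdh5 overlapped, as did those of Cdh5 and Ctnna1. Ctnnd1 came well below, at 9.29 ± 1.31 CPM per kb. Jup at 3.18 ± 0.811 and Cdh2 at 1.53 ± 0.677 CPM per kb closed the order, at percentiles 50.2 and 35.2. VE-cadherin transcripts therefore exceeded N-cadherin transcripts in every WT library.

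**Figure D1:**
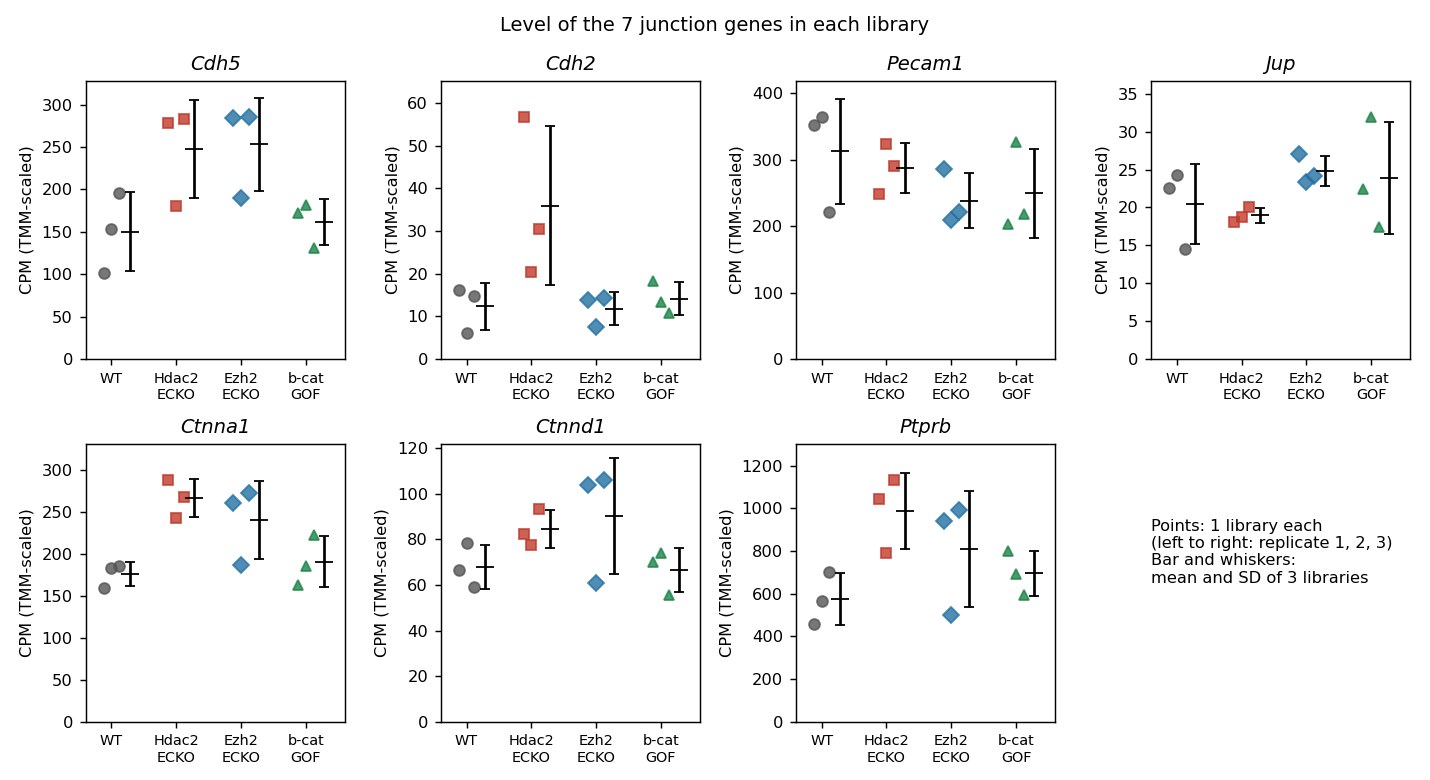
Level of each of the 7 genes in CPM, with 1 point per library, grouped by genotype, and the mean and SD of 3 libraries beside the points. Cdh2 lies between 20.5 and 56.7 CPM in Hdac2 ECKO and at 18.4 CPM or below elsewhere, while Pecam1 and Jup overlap between all mutants and WT.

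Cdh5 encodes VE-cadherin, the transmembrane core of the complex (ENSMUSG00000031871.9, GRCm38 chromosome 8, 104101625 to 104144511, plus strand, protein-coding, with the antisense gene Gm29682 on the opposite strand). Its levels in WT replicates 1, 2 and 3 were 102, 153 and 196 CPM. Hdac2 ECKO gave 278, 181 and 283 CPM, and the libraries labelled Ezh2 ECKO gave 284, 190 and 285 CPM. In beta-catenin GOF the values were 172, 182 and 131 CPM. Replicates 1 and 3 of both the Hdac2 ECKO and the labelled Ezh2 ECKO groups lay above all WT and beta-catenin GOF libraries, and replicate 2 of each overlapped with WT.

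Cdh5 did not pass the threshold in any contrast. Against WT its log2 fold change was 0.72 (95% interval 0.11 to 1.33) in Hdac2 ECKO and 0.75 (0.14 to 1.36) in labelled Ezh2 ECKO libraries. The edgeR quasi-likelihood test with Benjamini-Hochberg adjustment over all 12577 genes gave p-values of 0.1 and 0.13. Without the library labelled Ezh2 ECKO 2 the second log2 fold change was 0.92 and passed (edgeR adjusted p = 0.038). In that fit 2329 of all tested genes passed, against 129 with every library. Cdh5 did not pass when any other library of this contrast was left out (edgeR adjusted p = 0.058 to 0.40). In beta-catenin GOF, whose mice carry the same Cdh5CreERT2 driver, the log2 fold change was 0.11 (−0.50 to 0.71, edgeR adjusted p = 0.98). Whether the driver adds to Cdh5 counts was not tested.

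Cdh2 encodes N-cadherin, which joins cells of different kinds and is known for contacts between endothelium and pericytes and for its abundance in neural cells (ENSMUSG00000024304.14, chromosome 18, 16588877 to 16809246, minus strand, with the antisense gene Gm15485). It was the 1 member that changed in a contrast against WT. WT libraries stood at 16.1, 6.08 and 14.8 CPM, and Hdac2 ECKO libraries at 56.7, 20.5 and 30.6 CPM. The groups did not overlap, although the SD of Hdac2 ECKO, 18.7 CPM, exceeded the WT mean of 12.3 CPM. Cdh2 rose 2.91-fold (log2 fold change 1.54, SE 0.43, 95% interval 0.62 to 2.46, edgeR adjusted p = 0.043). Of all tested genes 9.2% were called in this contrast, 3.82% higher and 5.38% lower, and a single member of 7 gives no share that could be set against that background.

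This call rested on single libraries. It held without WT 3 and without Hdac2 ECKO 2, where 1872 and 2216 of all tested genes passed. It was lost without WT 1, WT 2, Hdac2 ECKO 1 or Hdac2 ECKO 3, with edgeR adjusted p-values of 0.13, 0.13, 0.21 and 0.14. There 0, 0, 3 and 0 of all tested genes passed, so the loss was not particular to Cdh2. Over these 6 fits the log2 fold change lay between 1.03 and 1.78. The libraries labelled Ezh2 ECKO held Cdh2 at 13.9, 7.4 and 14.2 CPM and beta-catenin GOF at 18.4, 13.4 and 10.7 CPM. Both groups overlapped with WT, with log2 fold changes of −0.06 (−0.97 to 0.85) and 0.20 (−0.71 to 1.1). The first of these turned to 0.19 without the library labelled Ezh2 ECKO 2. Direct tests of Hdac2 ECKO against the other mutants did not pass for Cdh2 (edgeR adjusted p = 0.32 and 0.17), with log2 differences of 1.60 for Hdac2 ECKO minus labelled Ezh2 ECKO and −1.34 for beta-catenin GOF minus Hdac2 ECKO.

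Sums of markers of other cells differed between the groups. The summed level of 12 pericyte and smooth muscle markers was 68 to 125 CPM in WT and 130 to 322 CPM in Hdac2 ECKO. It was 58.1 to 76.4 CPM where Ezh2 ECKO was the label and 122 to 386 CPM in beta-catenin GOF. Of this list 10 genes were tested in Hdac2 ECKO, all 10 had positive log2 fold changes (median 1.3) and 3 were called higher. In beta-catenin GOF, where Cdh2 overlapped with WT, 9 of 10 were positive with the same median of 1.3 and 0 were called. The beta-catenin GOF sums of replicates 1, 2 and 3 were 386, 122 and 122 CPM, and replicates 2 and 3 lay within the WT range. The smooth muscle gene Cnn1 was at 0 in all WT libraries. Hdac2 ECKO 1 had both the highest Cdh2 level and 322 CPM of these markers, whereas beta-catenin GOF 1 had 386 CPM of them and Cdh2 at 18.4 CPM. Across the 12 libraries log2 Cdh2 and the log2 marker sum correlated with r = 0.66, and log2 Cdh5 with r = 0.16. The libraries share their groups and scaling, so these are descriptions. The part of mural cell RNA in the Cdh2 result was not tested. In bulk samples more cells of a type and more RNA per cell cannot be told apart. Neuronal markers, 6 genes, summed to 159 to 301 CPM in WT and 63.1 to 112 CPM in Hdac2 ECKO. They summed to 178 to 422 CPM with the Ezh2 ECKO label and 118 to 248 CPM in beta-catenin GOF. Of the 2 that were tested, 1 was positive and 0 were called in each mutant. Red cell genes, 3 in number, summed to 19617 to 33720 CPM in WT and 212 to 11724 CPM in Hdac2 ECKO. They summed to 1456 to 3600 CPM with the Ezh2 ECKO label and 271 to 20835 CPM in beta-catenin GOF. All 3 were tested and 0 were positive in each mutant. Their median log2 fold changes were −2.82 in Hdac2 ECKO, −3.5 with the Ezh2 ECKO label and −1.22 in beta-catenin GOF. In Hdac2 ECKO 1 was called lower, and in each other mutant 0 were called. The part of red cell RNA in the members' values was not tested. Astrocyte markers, also 6 genes, summed to 24 to 35.7 CPM in WT, and the sums of all mutants were higher without overlap. They were 50.7 to 76.1 CPM in Hdac2 ECKO, 44.2 to 79.8 CPM with the Ezh2 ECKO label and 36.7 to 54.1 CPM in beta-catenin GOF. Of the 4 that were tested, 3, 3 and 2 were positive in the same order (median log2 fold changes 0.74, 0.57 and 0.06) and 0 were called. Aqp4, 1 of the astrocyte markers, was at 0 in all beta-catenin GOF libraries. Choroid plexus epithelium markers, 4 genes, summed to 1.67 to 2.09 CPM in WT, 2.42 to 112 CPM in Hdac2 ECKO, 23.9 to 182 CPM with the Ezh2 ECKO label and 0.422 to 33.6 CPM in beta-catenin GOF. Of the 3 that were tested, 2 were positive and 0 were called in each mutant.

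**Figure D2:**
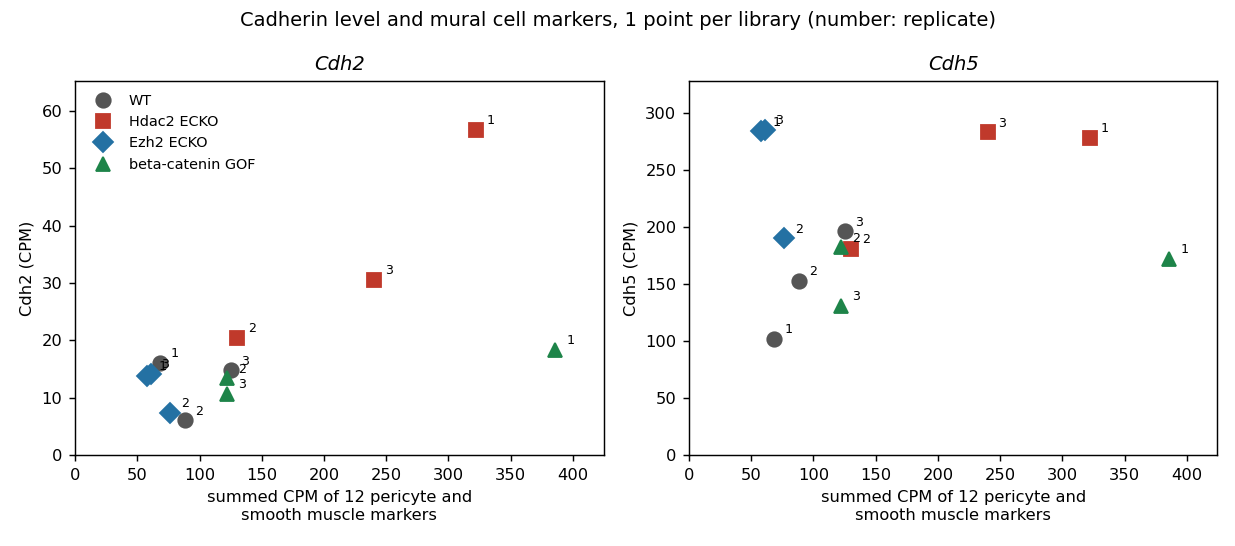
Level of Cdh2 (left) and Cdh5 (right) in CPM against the summed CPM of 12 pericyte and smooth muscle markers, with 1 point per library and its replicate number. Hdac2 ECKO 1 is high on both axes for Cdh2, and beta-catenin GOF 1 has the highest marker sum, 386 CPM, with Cdh2 at 18.4 CPM.

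Among the catenins, Ctnna1 encodes alpha-catenin, the link from the cadherin-bound catenins to actin (ENSMUSG00000037815.7, chromosome 18, 35118859 to 35254779, plus strand, with Lrrtm2 on the opposite strand). WT libraries lay close together at 159, 183 and 185 CPM. Hdac2 ECKO libraries stood at 288, 243 and 268 CPM, all above WT. The libraries labelled Ezh2 ECKO were at 260, 187 and 273 CPM, the lowest of them just above the highest WT library. Beta-catenin GOF, at 163, 186 and 223 CPM, overlapped with WT.

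Neither group without overlap passed the threshold for Ctnna1. The log2 fold change was 0.60 (0.12 to 1.09, edgeR adjusted p = 0.089) in Hdac2 ECKO and 0.45 (−0.04 to 0.94, edgeR adjusted p = 0.23) in labelled Ezh2 ECKO libraries. Leaving out 1 library at a time kept these values between 0.52 and 0.64 and between 0.34 and 0.60. In beta-catenin GOF the value was 0.12 (−0.37 to 0.60).

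Ctnnd1 encodes catenin delta-1, which binds the juxtamembrane tail of cadherins and limits their endocytosis (ENSMUSG00000034101.14, chromosome 2, 84600071 to 84650765, minus strand, overlapped on its own strand by Gm28635). WT libraries held 66.7, 78.2 and 59.1 CPM and Hdac2 ECKO libraries 82.3, 77.5 and 93.5 CPM. In labelled Ezh2 ECKO libraries, replicates 1 and 3 stood at 104 and 106 CPM and replicate 2 at 60.9 CPM, within the WT range. Beta-catenin GOF, at 70.1, 74.1 and 55.6 CPM, overlapped with WT. Log2 fold changes were 0.31 (−0.22 to 0.85), 0.41 (−0.13 to 0.95) and −0.03 (−0.57 to 0.51) in the same order, and none passed. Without the library labelled Ezh2 ECKO 2 the second was 0.63 (edgeR adjusted p = 0.059).

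Jup encodes plakoglobin, or gamma-catenin, the close relative of beta-catenin that can take its place on the cadherin tail (ENSMUSG00000001552.14, chromosome 11, 100368958 to 100397763, minus strand). Jup levels were 22.6, 24.3 and 14.5 CPM in WT and 18.1, 18.7 and 20.1 CPM in Hdac2 ECKO. Labelled Ezh2 ECKO libraries gave 27, 23.3 and 24.1 CPM and beta-catenin GOF 22.4, 31.9 and 17.4 CPM. All mutants overlapped with WT, with log2 fold changes of −0.11 (−0.71 to 0.50), 0.28 (−0.33 to 0.88) and 0.22 (−0.38 to 0.83).

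Pecam1 encodes CD31, an adhesion receptor at endothelial cell contacts (ENSMUSG00000020717.19, chromosome 11, 106654217 to 106750628, minus strand). The cells were gated on this protein, so its transcript is read within a population selected for it. WT libraries stood at 353, 364 and 222 CPM, and Hdac2 ECKO at 249, 324 and 290 CPM. The libraries labelled Ezh2 ECKO gave 286, 209 and 221 CPM and beta-catenin GOF 204, 327 and 218 CPM. Log2 fold changes were −0.12 (−0.69 to 0.45), −0.39 (−0.96 to 0.18) and −0.33 (−0.89 to 0.24), and none passed (edgeR adjusted p = 0.78, 0.38 and 0.92). Scaling by library size alone turned the Hdac2 ECKO values of Pecam1 and Jup to 0.12 and 0.13, so no direction is given for them.

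Ptprb encodes VE-PTP, an endothelial receptor tyrosine phosphatase that binds VE-cadherin and also acts on the Tie2 receptor (ENSMUSG00000020154.10, chromosome 10, 116275523 to 116389535, plus strand). WT libraries stood at 458, 568 and 703 CPM. Hdac2 ECKO libraries were all higher, at 1042, 790 and 1133 CPM. The libraries labelled Ezh2 ECKO 1 and 3 were at 939 and 992 CPM, and replicate 2, at 499 CPM, fell within the WT range. Beta-catenin GOF ran from 592 to 802 CPM. The log2 fold change in Hdac2 ECKO was 0.78 (0.16 to 1.40) and did not pass (edgeR adjusted p = 0.084). It was 0.49 (−0.12 to 1.11) in labelled Ezh2 ECKO libraries, and 0.74 without the low replicate 2 (edgeR adjusted p = 0.055). It was 0.27 (−0.34 to 0.89) in beta-catenin GOF.

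Over the 7 genes, the median log2 fold change was 0.60 for Hdac2 ECKO, 0.41 for the Ezh2 ECKO label and 0.12 for beta-catenin GOF. The median over all tested genes was 0.10, 0.05 and 0.01. With the length and GC correction the members' medians were 0.04, 0.20 and 0.05, beside −0.02, 0.05 and −0.01. In Hdac2 ECKO, 3 members (Cdh2, Ctnna1 and Ptprb) lay above WT without overlap, where 19.5% of all tested genes did so. In labelled Ezh2 ECKO libraries 1 member did, against 11.1% of tested genes, and 0 members passed, against 1.03% of tested genes. In beta-catenin GOF 0 members were free of overlap in either direction and 0 passed, against 12.7% and 0.0% of tested genes. At an unadjusted p under 0.05 edgeR gave 4, 1 and 0 members (33.1%, 24.7% and 6.07% of tested genes). DESeq2 called 1, 0 and 0 members, beside 2497, 1271 and 38 of all tested genes. The 3 contrasts share the WT libraries and are not independent of each other.

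**Figure D3:**
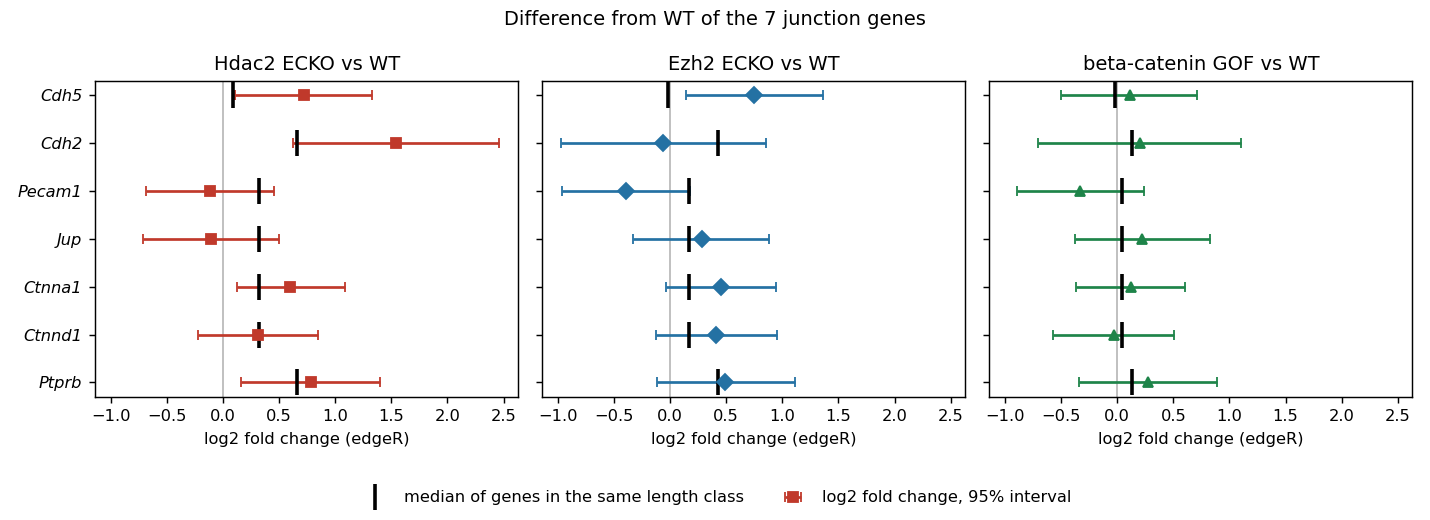
Log2 fold change against WT for each gene and mutant, with its 95% interval, and a black tick for the median of tested genes in the same length class. The interval of Cdh2 in Hdac2 ECKO runs from 0.62 to 2.46, and all 7 intervals in beta-catenin GOF include 0.

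A test of any difference among the 4 groups, which does not lean on WT alone, called 92 genes, 0.731% of those tested. No member was among them. Cdh2 came nearest (edgeR adjusted p = 0.079), followed by Cdh5 (edgeR adjusted p = 0.16) and Ctnna1 (edgeR adjusted p = 0.21). Without the library labelled Ezh2 ECKO 2 Cdh2 passed (edgeR adjusted p = 0.03), as it did without Hdac2 ECKO 2 (edgeR adjusted p = 0.034). In those fits 2444 and 1000 of all tested genes passed. No member passed when any other single library was left out, and the edgeR adjusted p of Cdh2 then reached 0.31. At an unadjusted p under 0.05 there were 2 members, Cdh5 and Cdh2, against 26.4% of tested genes.

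The mutants were also compared with each other, and 0 members passed in edgeR. Comparing Hdac2 ECKO with labelled Ezh2 ECKO, 0.0239% of genes passed, and 1 member, Cdh2, had an unadjusted p under 0.05 (8.19% of genes). Cdh2 was higher and Jup lower without overlap, as were 7.78% and 5.42% of genes. Setting beta-catenin GOF against Hdac2 ECKO, 0.0716% of genes passed, and 2 members, Cdh5 and Cdh2, had an unadjusted p under 0.05 (21.1% of genes). There Cdh2, Ctnna1 and Ctnnd1, 3 members, were lower in beta-catenin GOF without overlap, as were 15.9% of genes. DESeq2 called 1 member in that comparison, Cdh2, beside 533 of all tested genes. For beta-catenin GOF minus labelled Ezh2 ECKO, 0.0636% of genes passed and 1 member, Cdh5, had an unadjusted p under 0.05 (13.2% of genes). Cdh5 was lower in all beta-catenin GOF libraries than in all labelled Ezh2 ECKO libraries, with a log2 difference of −0.65 (−1.26 to −0.04, edgeR adjusted p = 0.36), and 8.67% of tested genes were lower without overlap in that comparison. Hdac2 ECKO and the labelled Ezh2 ECKO libraries had nearly the same mean Cdh5, 247 and 253 CPM, and the interval of their log2 difference ran from −0.64 to 0.57.

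Gene length moved with these differences. The tested genes were split into 5 length classes of about equal number. The shortest had a median log2 fold change of −0.52 in Hdac2 ECKO and the longest 0.66. The same classes had −0.21 and 0.43 for the Ezh2 ECKO label. For beta-catenin GOF they had −0.01 and 0.13. Cdh5, with 4203 bases, belongs to class 3, whose medians were 0.09, −0.02 and −0.02. Pecam1 (6228 bases), Ctnna1 (6425), Jup (6436) and Ctnnd1 (7319) belong to class 4, with medians of 0.32, 0.17 and 0.04. Cdh2 (8066 bases) and Ptprb (13333) belong to the longest.

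When a trend on length and GC content was removed from every library, the members parted. Ptprb dropped from 0.78 to 0.04 in Hdac2 ECKO and from 0.49 to 0.04 in labelled Ezh2 ECKO libraries. In Hdac2 ECKO Ctnna1 went from 0.60 to 0.26 and Ctnnd1 from 0.31 to −0.12. Cdh2 went from 1.54 to 1.03 and no longer passed (edgeR adjusted p = 0.12). Cdh5 stayed at 0.73 in Hdac2 ECKO and moved to 0.92 in labelled Ezh2 ECKO libraries, without passing (edgeR adjusted p = 0.13 and 0.087). Pecam1 stood at −0.43, −0.44 and −0.41 in the 3 mutants. After this correction 0 members passed in any contrast. The source of the length trend was not tested.

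**Figure D4:**
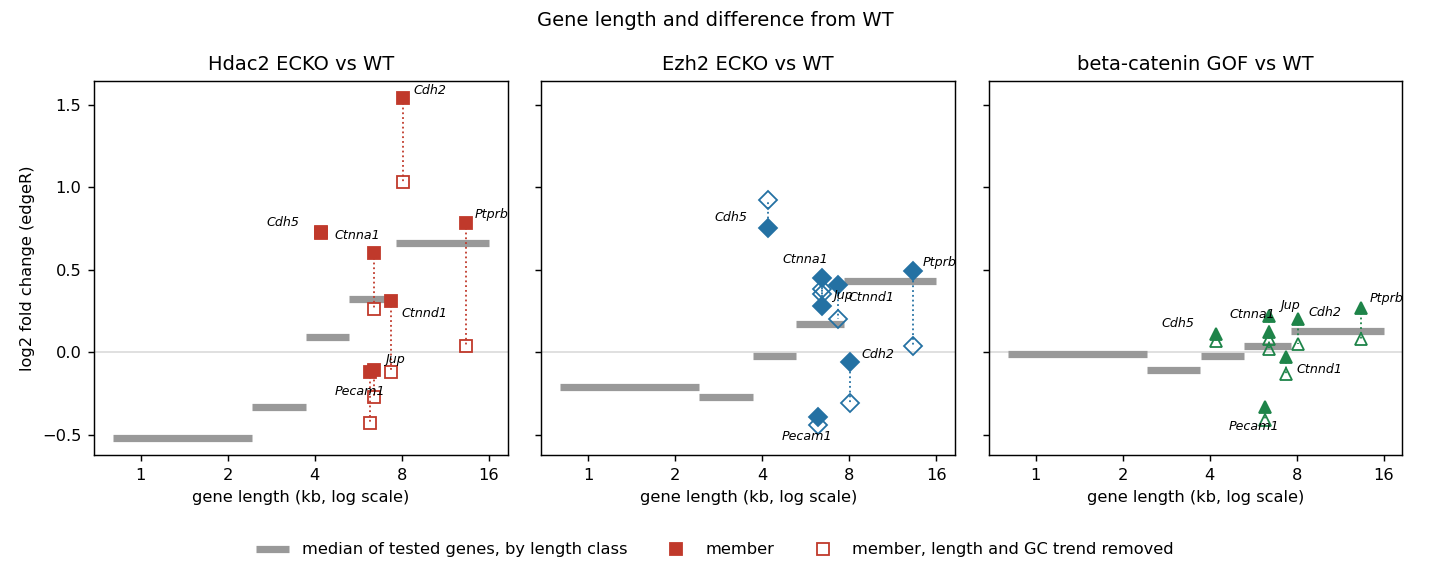
Log2 fold change against WT by gene length on a log axis in kb: filled symbols as fitted, open symbols once the trend on length and GC was taken out, and grey bars for the median of tested genes in each of 5 length classes (the outer bars are shortened to the axis). In Hdac2 ECKO Ptprb falls from 0.78 to 0.04 and Cdh5 stays at 0.73.

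Ratios between 2 genes of the same library do not depend on scaling. The log2 ratio of Ptprb to Cdh5 counts was narrow, 1.97 ± 0.17 in WT, 2.01 ± 0.11 in Hdac2 ECKO, 1.64 ± 0.21 in labelled Ezh2 ECKO libraries and 2.11 ± 0.16 in beta-catenin GOF (SD, n = 3). All labelled Ezh2 ECKO libraries, at 1.72, 1.40 and 1.80, lay below all others. An exact permutation test of the F statistic over the 4 groups gave p = 0.028, and 0.074 after adjustment over the 3 ratios. Without the library labelled Ezh2 ECKO 2 the exact p was 0.15.

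The log2 ratio of Cdh2 to Cdh5 averaged −3.68 ± 1.00 in WT, with libraries at −2.66, −4.65 and −3.72. It was −2.88 ± 0.51 in Hdac2 ECKO, −4.45 ± 0.20 in labelled Ezh2 ECKO libraries and −3.54 ± 0.28 in beta-catenin GOF. Cdh5 thus exceeded Cdh2 in all 12 libraries, and the Hdac2 ECKO ratios overlapped with WT. The exact permutation p over the 4 groups was 0.074, also after adjustment. It was 0.0054 without WT 1 and 0.014 without WT 2, the libraries at either end of the WT range. Leaving out any other single library gave exact permutation p-values of 0.096 to 0.18.

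The log2 ratio of Jup to Ctnnb1, the competing catenins, was −5.01 ± 0.68 in WT and −5.90 ± 0.36 in Hdac2 ECKO. Those with the Ezh2 ECKO label stood at −5.43 ± 0.36 and beta-catenin GOF at −4.64 ± 0.41 (exact permutation p = 0.059 over the 4 groups, adjusted 0.074). Ctnnb1 stood at 654 ± 138 CPM in WT, 1157 ± 271 in Hdac2 ECKO, 1102 ± 303 in labelled Ezh2 ECKO libraries and 583 ± 109 in beta-catenin GOF. All beta-catenin GOF ratios lay above all Hdac2 ECKO ratios. Without WT 3, whose ratio of −5.80 lay apart from −4.59 and −4.64, the exact p was 0.012. Leaving out any other single library gave exact permutation p-values of 0.0548 to 0.15. Each mutant was also compared with WT for each ratio, 9 pairs in all. Exact permutation of 3 against 3 libraries cannot go below 0.1, and the adjusted p-values ran from 0.54 to 0.9.

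**Figure D5:**
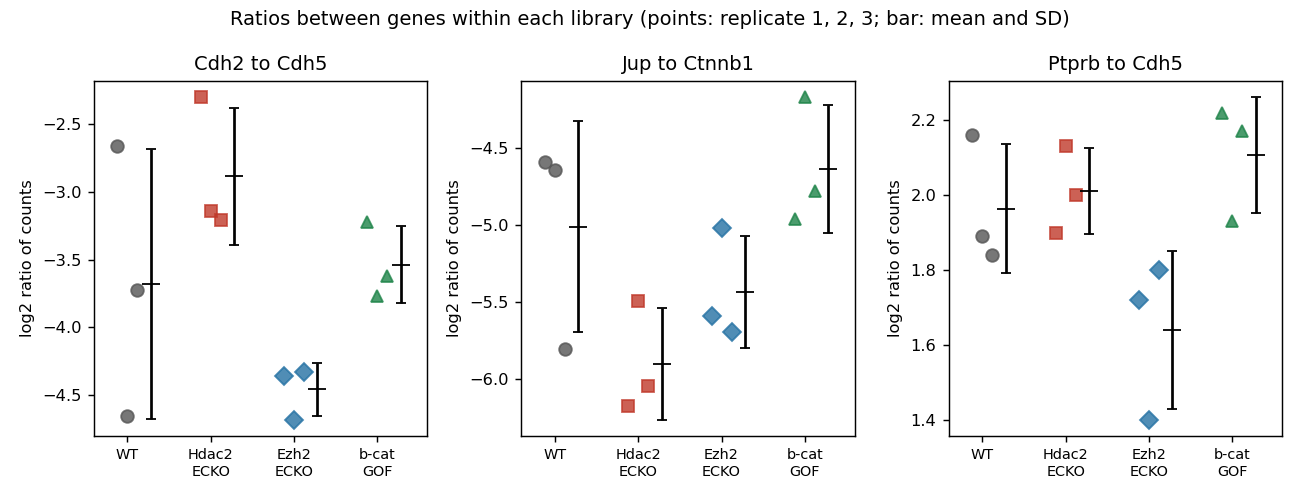
Log2 ratio of counts within each library for Cdh2 to Cdh5, Jup to Ctnnb1 and Ptprb to Cdh5, with points for single libraries and the mean and SD of 3. The Ptprb to Cdh5 ratios of the libraries labelled Ezh2 ECKO, at 1.72, 1.40 and 1.80, lie below the rest.

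The members also differed in how they varied together over the 12 libraries. Log2 levels of Cdh5 correlated with Ptprb (r = 0.87), Ctnna1 (0.78) and Ctnnd1 (0.73), and with Ctnnb1 (0.93), but hardly with Jup (0.05) and negatively with Pecam1 (−0.26). Cdh2 correlated best with Ptprb (0.69). Among 7579 other genes with a mean of at least 10 CPM, the pattern of Cdh5 was most like those of Rsbn1l (r = 0.988), Sun1 (0.978), Rnf44 (0.977), Setd1b (0.976) and Abhd2 (0.97). Ptprb ranked 436th and Ctnna1 1122nd in that order, so many genes outside the junction ran closer to Cdh5 than the other members did. Cdh2 was most like Rbbp8 (0.944), Upf3b (0.896), Arl5b (0.891), Cep290 (0.874) and Zfp738 (0.871). These libraries share group membership and the length trend, and the correlations are descriptions over 12 points.

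Other genes of the adherens junction were taken from 6 lists with 81 genes, of which 74 were tested. In Hdac2 ECKO 3 of the 74 were called higher and 6 lower, beside 3.82% and 5.38% of all tested genes. At an unadjusted p under 0.05 there were 32 of the 74 (33.1% of all tested genes). DESeq2 called 19, beside 2497 of all tested genes. None of the 74, a count of 0, was called in edgeR for labelled Ezh2 ECKO or beta-catenin GOF. There 18 and 3 had an unadjusted p under 0.05, near the 24.7% and 6.07% of all tested genes. DESeq2 called 6 and 0, beside 1271 and 38 of all tested genes. With 1 library left out at a time, some of the 74 passed in edgeR for labelled Ezh2 ECKO, each at most 2 times in 6. Those fits passed 2 to 2329 of all tested genes. For beta-catenin GOF each of the 74 passed 0 times in 6. The median log2 fold change of the 74 was 0.49, 0.34 and 0.10, beside 0.10, 0.05 and 0.01 over all tested genes, and after the length and GC correction 0.12, 0.13 and 0.01, beside −0.02, 0.05 and −0.01.

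The genes called higher in Hdac2 ECKO were Afdn, Rapgef6 and Ptpn11. Afdn, which encodes afadin, the actin linker of nectins, rose from 272 ± 64.1 to 613 ± 99.8 CPM (log2 fold change 1.17, edgeR adjusted p = 0.033). Rapgef6, an activator of Rap1, rose from 37.4 ± 2.63 to 90.8 ± 19.9 CPM, and the phosphatase gene Ptpn11 from 18.1 ± 3.28 to 38.7 ± 8.06 CPM (edgeR adjusted p = 0.032 and 0.035). With the length and GC correction their log2 values were 0.56, 0.49 and 0.68, and none passed.

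Among the genes called lower, Icam2, an adhesion molecule of endothelial junctions, fell from 411 ± 109 to 145 ± 71.4 CPM (edgeR adjusted p = 0.034), and it was still called with the length and GC correction. F11r and Ccm2, named after their values were seen, had log2 fold changes of −0.99 and −1.48. With the length and GC correction F11r was at −0.66 and no longer called (edgeR adjusted p = 0.065). Ccm2 was at −1.26 and still called (edgeR adjusted p = 0.0453). With 1 library left out at a time, each of the 9 called genes passed 2 times in 6.

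In 5 of the lists, results by role were as follows. In Hdac2 ECKO 12 of 15 tested catenins and actin linkers had positive log2 fold changes (median 0.61, and 0.30 with the length and GC correction, 1 called). Nectins and junctional immunoglobulin proteins had 4 of 10 positive, with a median of −0.21 (corrected −0.18) and 2 called lower. Cadherins other than the members had 3 of 6 positive and 0 called (median 0.64, corrected 0.05). Rap1, CCM and polarity proteins had 10 of 14 positive with 1 called in each direction (median 0.55, corrected −0.08). Shedding and turnover genes had 3 of 7 positive with 0 called (median −0.26, corrected −0.02). The median over all tested genes in this contrast was 0.10 (corrected −0.02).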

How the data were processed

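Per the labels' protocols, libraries were made from sorted cells with SMART-Seq v4 PLUS and sequenced as read pairs. The submitters' processing notes name FastQC, cutadapt, STAR, featureCounts, DESeq2 and mm10, without roles. Annotation, strand use and filters are not given in the sources used here, so reads of genes overlapping on opposite strands cannot be told apart. The deposited values are counts per gene, although the file is titled as normalized: they are whole numbers, totals differ, and 79.5% to 84% of values from 10 to 50 were even, as arises when both mates are counted. The deposited lengths (other unit) are in bases per the file headers. Positions were identical to GENCODE M21 on GRCm38 for 99.1% of genes.

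edgeR 4.0.16 (R 4.3.3) fitted 1 model over all 12 libraries with TMM scaling, group terms and no block. A mean count of 10 or more was required for testing, with Benjamini-Hochberg adjustment over 12577 genes and a threshold of 0.05. Standard errors come from the F statistic and intervals are 95%. The floor of 3 counts is 0.0831 to 0.121 CPM. Reads carry no molecular identifiers, so intervals cover counting and library spread only. The scripts were tested on simulated data.

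Members and lists were chosen with earlier results of these data known. Genes named were the 7 members, the targeted genes, per contrast against WT up to 6 list genes with the smallest p past the threshold, and the 5 genes most like Cdh5 and Cdh2. Some of the list genes this rule names are not reported here. Alternatives were median-ratio scaling, library size alone, no filter, DESeq2 1.42.0, sample quality weights (limma 3.58.1), a replicate block, 2-group fits, the length and GC correction and leaving out each library. Same-numbered libraries of Hdac2 ECKO and the labelled Ezh2 ECKO group deviated together (r = 0.19, 0.43 and 0.13). So did Hdac2 ECKO 1 with labelled Ezh2 ECKO 3 (r = 0.21) and Hdac2 ECKO 3 with labelled Ezh2 ECKO 1 (r = 0.12). Pairs of a replicate 2 with a replicate 1 or 3 of these groups had r from −0.3 to −0.19. The numbers alone therefore did not set pairs apart there, nor did they pair libraries in the other comparisons.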

Additional observations from a re-analysis of the deposited data

How the results depend on the processing

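Comparisons 1 to 3 set WT beside Hdac2 ECKO, labelled Ezh2 ECKO and beta-catenin GOF. Comparison 4 is Hdac2 ECKO minus labelled Ezh2 ECKO, 5 is beta-catenin GOF minus Hdac2 ECKO, 6 is beta-catenin GOF minus labelled Ezh2 ECKO, and 7 is any difference among the 4 groups. As fitted, 1157, 129, 0, 3, 9, 8 and 92 genes passed, and 1, 0, 0, 0, 0, 0 and 0 members. Where a value moved, the cause was not tested unless the setting itself uses fewer libraries or genes. Under sample quality weights 5374, 3743, 26, 11, 3339, 1466 and 5015 genes passed, with 4 members (Cdh5, Cdh2, Ctnna1 and Ptprb) in comparisons 1, 5 and 7 and 3 (Cdh5, Ctnna1 and Ptprb) in comparison 2. With no low-count filter they were 2279, 1367, 157, 199, 978, 359 and 2483, and with DESeq2 2497, 1271, 38, 98, 533, 144 and 2016. Cdh2 passed without the filter in comparisons 4, 5 and 7, 1 member in each, and with DESeq2 in 5 and 7, again 1 in each. Scaling by library size alone gave 1826 genes and 4 members in comparison 1, and 30, 4, 14 and 170 genes in comparisons 2, 5, 6 and 7. Median-ratio scaling gave 76 genes in comparison 2 and the fit of only 2 groups gave 17. With the length and GC correction 0 members passed in comparison 1, and 366, 1, 15 and 162 genes passed in comparisons 2, 5, 6 and 7. Beta-catenin GOF had 763 genes at an unadjusted p under 0.05.

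With the replicate number as a block, 1832, 536, 13 and 803 genes passed in comparisons 1, 2, 6 and 7, and 1 member, Cdh2, passed over the 4 groups. The block changed no other count of members. Permuting the ratios within replicate numbers gave exact p-values of 0.019 for Cdh2 to Cdh5, 0.026 for Jup to Ctnnb1 and 0.069 for Ptprb to Cdh5. With the length and GC correction the exact permutation p of Jup to Ctnnb1 was 0.043.

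Leaving out 1 library at a time gave 0 to 2216, 2 to 2329, 0 to 4, 1 to 3, 0 to 538, 1 to 732 and 10 to 2444 genes in comparisons 1 to 7. Members passing ran from 0 to 1 in comparisons 1, 2 and 7 and were 0 in the rest. Exact permutation p-values of the ratios ran from 0.0054 to 0.18 (Cdh2 to Cdh5), 0.012 to 0.15 (Jup to Ctnnb1) and 0.014 to 0.15 (Ptprb to Cdh5).

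Some small log2 fold changes turned sign, none of them past the threshold. Library size alone gave Pecam1 0.12 and Jup 0.13 in Hdac2 ECKO, Ctnnd1 0.02 in beta-catenin GOF, and Cdh5 0.15 and Ctnnd1 0.09 in comparison 4. Sample quality weights gave Cdh2 0.63 in labelled Ezh2 ECKO. The length and GC correction gave Ctnnd1 −0.12 in Hdac2 ECKO, Ctnna1 −0.09 and Ptprb −0.002 in comparison 4, Pecam1 0.01 and Ptprb 0.03 in comparison 5, and Ptprb 0.03 in comparison 6. Leaving out 1 library at a time, values that turned sign ran from −0.32 to 0.001 (Pecam1) and −0.30 to 0.03 (Jup) in comparison 1, and from −0.39 to 0.19 (Cdh2) in comparison 2. In comparison 3 they ran from −0.11 to 0.34 (Cdh5), −0.13 to 0.44 (Cdh2), −0.04 to 0.41 (Jup), −0.01 to 0.22 (Ctnna1) and −0.12 to 0.08 (Ctnnd1). They ran from −0.20 to 0.11 (Cdh5) and −0.32 to 0.01 (Ctnnd1) in comparison 4, and from −0.18 to 0.23 (Pecam1) and −0.32 to 0.13 (Jup) in comparison 6.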
